A study of Mus musculus with 18 samples.

Results

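The genes described here are 38 core components of the machinery that copies and then divides the chromosomes. They were chosen by name: 20 act in DNA replication and 18 in mitosis, and all 38 have a row in both deposited count tables, which list 26157 and 54114 gene symbols. RNA was sequenced from mouse embryonic stem (ES) cells and from the embryoid bodies (EBs) they form, to follow how forced Dlx2, a homeobox factor of face and forebrain, steers the cells toward ectomesenchyme, the facial mesenchyme of neural crest origin. Of 9 labelled groups, 7 groups of 2 libraries each have a column in the tables, and the uninduced EBs of either line were not analysed here. Every group came from the same ES line, with tdTomato placed at Msx1, a homeobox gene of facial mesenchyme.

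The groups are as follows. Dlx2+dox was EBs at day 2 from cells with an inducible Dlx2 transgene, given 1 µg/ml doxycycline. GFP+dox was EBs at day 2 from cells with an inducible GFP transgene, given the same dose. The day-2 columns name the line but not doxycycline, and the series also holds uninduced EBs of both lines. These columns were taken as the induced groups from the series design text, which was not tested for the GFP columns. D8_Msx1+ and D8_Msx1- were cells of induced Dlx2 EBs, sorted at day 8 into those with and without the Msx1 reporter. D16_Msx1+ and D16_Msx1- were sorted in the same way at day 16. ES was the undifferentiated line, given as wild type and untreated. No GFP group stands beside the sorted cells, so each sorted fraction carried the Dlx2 transgene and doxycycline. The labels name a single parental line and do not say whether the 2 libraries of a group came from separate cultures, so p-values measure the spread between these libraries only, and that spread may be technical.

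A dividing cell copies its genome in S phase and separates the copies in M phase. Before S phase, ORC, Cdc6 and Cdt1 load the MCM2-7 helicase at origins. Cyclin E with its kinase, Cdc45 and the GINS complex then turn the helicase on, PCNA clamps the polymerases to the template, and ribonucleotide reductase supplies deoxynucleotides. Cyclins A and B with Cdk1 start mitosis, Plk1 and the Aurora kinases build the spindle, the Bub and Mad proteins hold anaphase back until chromosomes are attached, and Cdc20 releases it. Replication genes are transcribed ahead of S phase, largely through E2F factors, and mitosis genes later, through the DREAM and MuvB complexes with B-Myb and FoxM1. Mouse ES cells cycle fast with a short G1 phase, and differentiation lengthens it.

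Promoters are shown first, because the words read by these factors are spread unequally over the replication and mitosis genes. RefSeq promoters on GRCm38.p6 (250 bases before to 50 after the start) matched 30 of the 38 genes with 31 promoters. No entry was matched for Gins1, Gins2, Gins4, Mcm4, Ccne2, Ccna2, Aurkb and Tpx2. Each promoter was searched on both strands for the E2F words TTTCCCGC, TTTGGCGC, TTTCGCGC and TTTGCCGC, for the CHR word TTTGAA, through which MuvB complexes bind, and for CCAAT, the word of NF-Y. TTTGGCGC and TTTCGCGC can overlap a word of the same set on the other strand. Below, 7 promoters are printed 5′ to 3′ along the gene, from 170 bases before the start through the first 20 transcribed bases, with E2F and CHR words in capitals. The first 3 belong to replication genes (chr8:75109339-75109528, plus strand, for Mcm5, chr1:128359686-128359875, minus strand, for Mcm6, and chr4:108579284-108579473, plus strand, for Orc1). The other 4 belong to mitosis genes, all on the minus strand (chr10:69352893-69353082 for Cdk1, chr4:118437324-118437513 for Cdc20, chr9:70421535-70421724 for Ccnb2 and chr11:99024170-99024359 for Top2a).
Mcm5: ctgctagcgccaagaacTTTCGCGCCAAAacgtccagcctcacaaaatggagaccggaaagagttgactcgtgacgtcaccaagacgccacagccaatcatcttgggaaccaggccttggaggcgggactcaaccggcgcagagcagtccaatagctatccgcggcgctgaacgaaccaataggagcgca
Mcm6: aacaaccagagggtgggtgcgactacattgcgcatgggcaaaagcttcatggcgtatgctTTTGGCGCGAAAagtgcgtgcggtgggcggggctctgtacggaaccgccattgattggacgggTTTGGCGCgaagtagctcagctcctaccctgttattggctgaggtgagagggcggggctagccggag
Orc1: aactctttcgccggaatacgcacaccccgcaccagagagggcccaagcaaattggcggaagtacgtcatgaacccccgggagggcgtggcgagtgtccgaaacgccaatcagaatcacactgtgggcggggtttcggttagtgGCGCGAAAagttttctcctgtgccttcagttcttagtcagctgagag
Cdk1: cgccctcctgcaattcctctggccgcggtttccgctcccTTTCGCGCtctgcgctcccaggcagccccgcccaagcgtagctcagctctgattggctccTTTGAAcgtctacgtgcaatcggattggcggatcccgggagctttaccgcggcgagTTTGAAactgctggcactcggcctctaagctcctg
Cdc20: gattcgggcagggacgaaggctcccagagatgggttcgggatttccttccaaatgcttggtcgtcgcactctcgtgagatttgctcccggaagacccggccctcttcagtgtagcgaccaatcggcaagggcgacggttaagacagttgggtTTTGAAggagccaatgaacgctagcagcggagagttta
Ccnb2: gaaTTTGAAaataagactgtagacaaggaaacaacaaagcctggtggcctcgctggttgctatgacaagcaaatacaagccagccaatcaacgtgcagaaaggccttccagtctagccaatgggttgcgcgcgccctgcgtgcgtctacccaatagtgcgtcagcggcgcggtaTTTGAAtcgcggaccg
Top2a: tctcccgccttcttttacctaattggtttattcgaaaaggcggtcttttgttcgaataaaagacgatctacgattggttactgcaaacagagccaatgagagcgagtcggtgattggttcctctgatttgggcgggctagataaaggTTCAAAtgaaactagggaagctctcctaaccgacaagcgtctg

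An E2F word was found in 8 of 16 replication promoters (50%), those of Mcm3, Mcm5, Mcm6, Mcm7, Orc1, Cdc6, Cdt1 and Gins3. Among mitosis genes 1 of 15 promoters held one (6.67%), that of Cdk1, and over all 32851 promoters of the table the share was 2.26%. The CHR word showed the opposite order. It was found in 10 of 15 mitosis promoters (66.7%), against 3 of 16 replication promoters (18.8%) and 17.9% of all promoters. The NF-Y word was common to both groups, in 13 of 16 replication promoters (81.2%) and 13 of 15 mitosis promoters (86.7%), against 37.4% overall. In Cdc20 the CHR word began 18 bases before the start, and in Cdk1 at 71 and at 15 bases before it. A match is a run of letters and was not tied to binding in these cells.

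**Figure D1:**
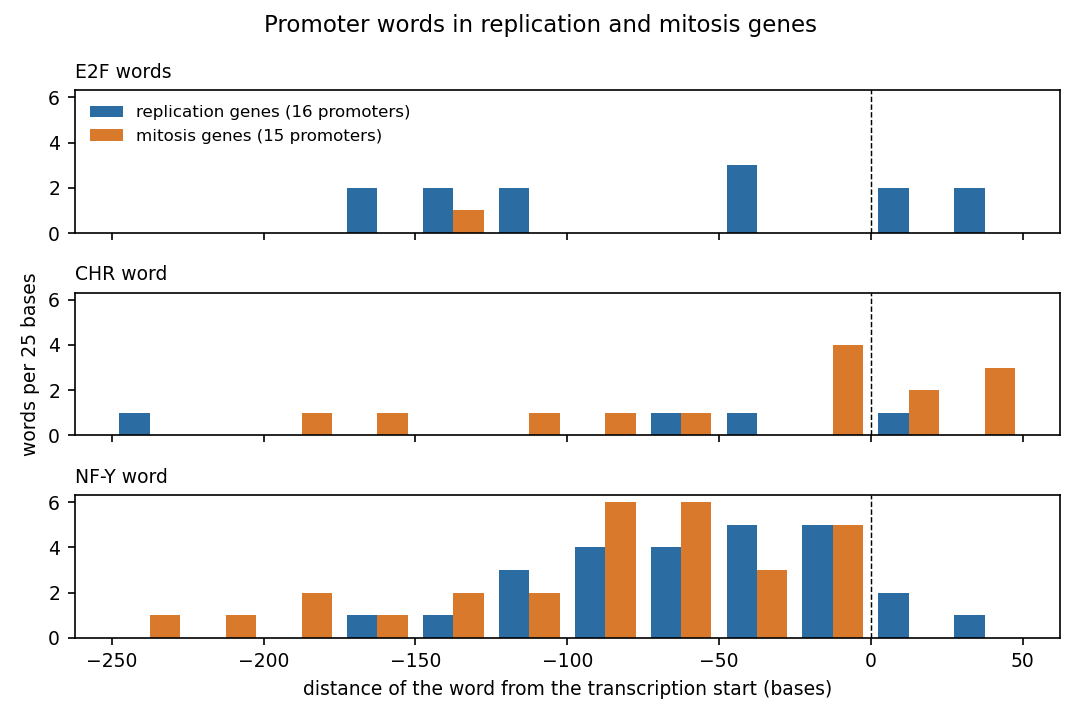
Number of promoter words per 25 bases (vertical axis) by distance from the RefSeq transcription start in bases (horizontal axis), for 16 promoters of replication genes (blue) and 15 of mitosis genes (orange). E2F words stood almost only in replication promoters (8 promoters, against 1 of mitosis genes), and the CHR word mostly in mitosis promoters (10, against 3).

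The day-2 libraries held 26211608 to 41552818 counted reads each, and the sorted and ES libraries 53797597 to 107770730. The Dlx2 transcript stood at 4338 and 4715 CPM (reads of the gene relative to the TMM-adjusted total of its library) in Dlx2+dox EBs, against 0.0811 and 0.0807 CPM in GFP+dox EBs. In sorted cells Dlx2 was at 1137 and 1270 CPM in D8_Msx1+ cells, against 269 and 271.5 CPM in D8_Msx1- cells, and at 288.2 and 341 CPM in D16_Msx1+ cells, against 131.2 and 145.8 CPM in D16_Msx1- cells. The libraries labelled ES held 218.7 and 221.5 CPM of Dlx2, a level that goes against their label of wild type and untreated. Msx1 followed the sort, with 40.9 to 81.6 CPM in the 4 Msx1+ libraries and 0.752 to 1.9 CPM in the 4 Msx1- libraries. Summed over 8 mesenchyme markers (Prrx1, Twist1, Col1a1 and others), the level was 15687 to 17092 CPM in D16_Msx1+ cells, against 698 to 775 CPM in D16_Msx1- cells, and 2088 to 2352 CPM in D8_Msx1+ cells, against 63.5 to 64.4 CPM in D8_Msx1- cells. Summed over 7 ES cell markers (Pou5f1, Nanog, Sox2 and others), it was 183 to 194 CPM in D16_Msx1+ cells, against 2416 to 2418 CPM in D16_Msx1- cells, and 966 to 970 CPM in D8_Msx1+ cells, against 3288 to 3321 CPM in D8_Msx1- cells. At day 2 the ES marker sum was 801 to 814 CPM in Dlx2+dox EBs, against 2918 to 2977 CPM in GFP+dox EBs, and the mesenchyme sum was 1520 to 1538 CPM, against 14 to 14.8 CPM. All markers of both lists had counts in every group, apart from 1 mesenchyme marker at 0 in the libraries labelled ES. The levels below moved together with these sums, and the part of cell makeup in them was not tested. In bulk RNA, fewer dividing cells and less RNA of a gene in each dividing cell cannot be told apart.

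All 38 genes were detected in all 14 libraries and passed the filter on low counts in both tables. Within the table of sorted and ES cells, the lowest mean level of 33 of the 38 genes was in D16_Msx1+ cells (17 of 20 replication and 16 of 18 mitosis genes), and the highest of 32 genes was in the libraries labelled ES (15 and 17). Of the 15388 genes with at least 1 CPM in at least 4 of those libraries, 36.9% had their lowest mean in D16_Msx1+ cells and 30.8% their highest in the libraries labelled ES. The exceptions at the low end were Rrm1, Rrm2, Ccne2, Mki67 and Kif11. Summed over the 20 replication genes, the level was 3039 and 3105 CPM in D8_Msx1+ cells, 4815 and 4858 CPM in D8_Msx1- cells, 2362 and 2397 CPM in D16_Msx1+ cells, 3564 and 3625 CPM in D16_Msx1- cells, and 5392 and 5232 CPM in the libraries labelled ES. The 18 mitosis genes summed to 2596 and 2652 CPM in D8_Msx1+ cells, 3703 and 3666 CPM in D8_Msx1- cells, 2171 and 2163 CPM in D16_Msx1+ cells, 3347 and 3356 CPM in D16_Msx1- cells, and 4552 and 4551 CPM in the libraries labelled ES. For either sum the libraries of no group overlapped those of another. At day 2, in the other table, the replication sum was 3561 and 3579 CPM in Dlx2+dox EBs, against 4609 and 4621 CPM in GFP+dox EBs, and the mitosis sum 3758 and 3692 CPM, against 4467 and 4365 CPM.

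**Figure D2:**
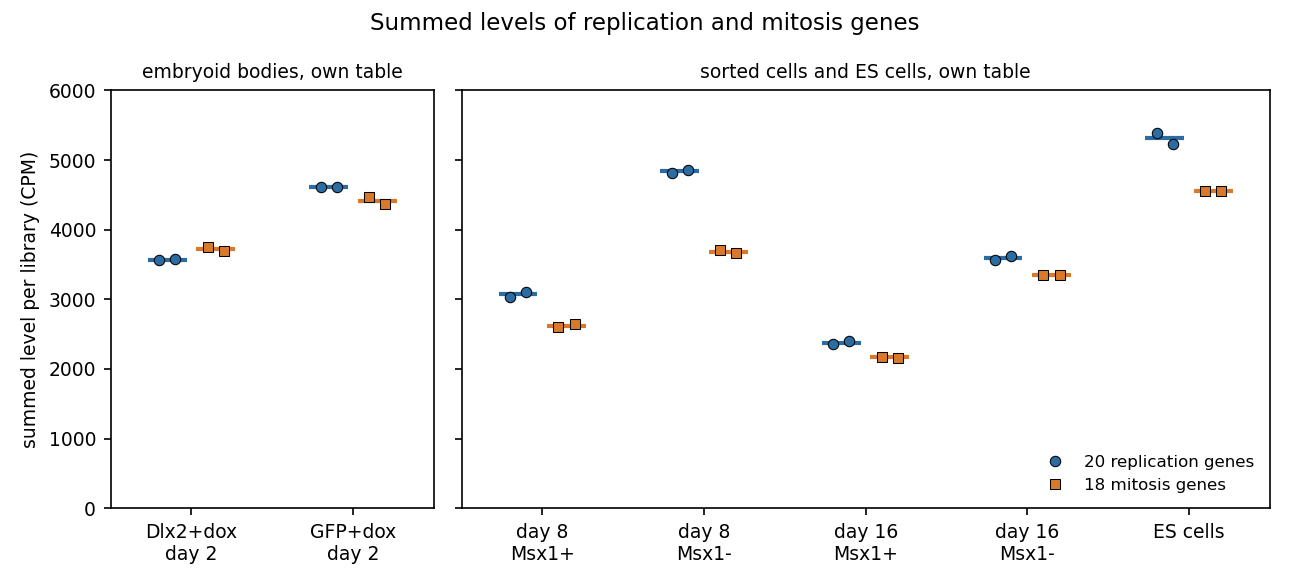
Summed level of 20 replication genes (blue circles) and 18 mitosis genes (orange squares) in each library, in TMM-scaled CPM (vertical axis, from 0), by group (horizontal axis), with bars at the mean of 2 libraries. The sums are lowest in D16_Msx1+ cells (2362 and 2397 CPM for replication), and the panels come from separate tables whose levels are not compared with each other.

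Per kilobase of the principal transcript, the scale on which genes can be compared, the range within the machinery was wide. In ES cells it ran from Cdc20, the anaphase activator, at 218 CPM per kb, Ccnb1 (cyclin B1) at 205 and Pcna, the sliding clamp, at 202, down to Gins3 at 7.28 and Ccne2 (cyclin E2) at 6.93 CPM per kb. The 6 MCM2-7 subunits, which form a ring of equal parts, stood between 94.6 (Mcm4) and 187 (Mcm7) CPM per kb in the libraries labelled ES and between 47.6 (Mcm4) and 82.5 (Mcm6) in D16_Msx1+ cells. Kif11, a spindle motor, was lower still, at 2.43 CPM per kb in the libraries labelled ES and at 4.22 to 12.2 CPM over the libraries of that table. By library size it stood at 306.9 CPM in GFP+dox EBs of the other table, against 11.08 CPM in the libraries labelled ES, a ratio of 27.7, while the other 37 genes had ratios of 0.636 to 1.31. Whether the tables counted Kif11 in the same way was not tested, so its place in the order above is uncertain.

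At day 2, both groups of genes were mostly lower under forced Dlx2, but neither moved as a block. In Dlx2+dox against GFP+dox EBs, 14 of 20 replication genes were called lower and 2 higher, and 11 of 18 mitosis genes were called lower and 4 higher, by edgeR's quasi-likelihood test at an adjusted p below 0.05. Over all 18650 genes tested, 33% were called lower and 34.1% higher (67.2% either way). With 2 libraries against 2, a gene separates fully in 0.333 of random orders. The share of all genes without overlap was not counted, and many genes are named for their large change. Non-overlap, where stated for a gene, therefore describes its libraries and adds no support to its call. The median log2 fold change was -0.36 for replication genes and -0.27 for mitosis genes, against 0.02 over all genes. Scaled to library size alone, the calls became 11 lower and 5 higher for replication genes and 8 lower and 6 higher for mitosis genes.

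The E cyclins, which drive entry into S phase, moved in opposite directions. Ccne1 (cyclin E1, chr7:38097984-38107534, minus strand, GRCm38) stood at 85.7 and 87.3 CPM in Dlx2+dox EBs, against 234.4 and 233.6 CPM in GFP+dox EBs. The Dlx2+dox libraries were both far below the GFP+dox libraries, with a log2 fold change of -1.44 ± 0.049 (SE, adjusted p = 5.55e-17), or 0.369 times the level. Ccne2 (cyclin E2, chr4:11191351-11204779, plus strand) was at 53.9 and 46.9 CPM in Dlx2+dox EBs, against 27.3 and 27.5 CPM in GFP+dox EBs. Its libraries did not overlap either, and it was higher by 0.88 ± 0.081 on the log2 scale (adjusted p = 2.05e-09). Of the exon bases of Ccne2, 17.4% are shared with Ints8 on the opposite strand, and the libraries do not record strand.

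All 3 origin licensing genes fell at day 2. Orc1, the largest subunit of the origin recognition complex, was at 49.8 and 49.8 CPM in Dlx2+dox EBs, against 94 and 89.5 CPM in GFP+dox EBs (log2 fold change -0.88 ± 0.06, adjusted p = 1.1e-11). Cdc6, which loads the helicase with ORC, was at 76.2 and 73.2 CPM in Dlx2+dox EBs, against 112.8 and 117.6 CPM in GFP+dox EBs (-0.62, adjusted p = 6.78e-10). Cdt1, which brings the MCM ring to ORC, was at 110.5 and 114.6 CPM, against 169.8 and 179.8 CPM in GFP+dox EBs (-0.64, adjusted p = 2.16e-10). For each of the 3 genes both Dlx2+dox libraries lay below both GFP+dox libraries.

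Of the MCM2-7 subunits, 5 of 6 were called lower, with log2 fold changes from -0.58 for Mcm7 to -0.17 for Mcm4, whose sign turned (to 0.01) when counts were scaled to library size alone. Mcm2 was at 405.9 and 420.4 CPM in Dlx2+dox EBs, against 532.2 and 540.4 CPM in GFP+dox EBs (-0.38, adjusted p = 2.91e-07). Mcm5 was the exception, with overlapping libraries at 417.9 and 429 CPM in Dlx2+dox EBs, against 424.1 and 433.3 CPM in GFP+dox EBs (-0.02, adjusted p = 0.752). Mcm10, a firing factor at the new fork, was at 110.7 and 110.6 CPM, against 159.4 and 158.7 CPM in GFP+dox EBs (-0.52, adjusted p = 2.97e-09). Pcna was at 228.9 and 227.2 CPM in Dlx2+dox EBs, against 319.2 and 304.4 CPM in GFP+dox EBs (-0.45), and Cdc45, a helicase partner, at 45.1 and 43.6 CPM, against 56.5 and 56.1 CPM (-0.34). The GINS subunits, which complete the active helicase, did not share a direction: Gins4 was called lower (-0.26), Gins2 higher (0.21), and Gins1 (0.12) and Gins3 (-0.04) were not called. The call of Gins2, which shares 67.3% of its exon bases with Gse1, was lost without the second Dlx2+dox library (adjusted p = 0.156) or the first GFP+dox library (adjusted p = 0.128). Ribonucleotide reductase was split as well, with the large subunit Rrm1 called lower (-0.2) and the small subunit Rrm2 not called, at 265.2 and 265.7 CPM in Dlx2+dox EBs, against 249.5 and 252.2 CPM in GFP+dox EBs (0.08, adjusted p = 0.128).

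Among mitosis genes the largest falls at day 2 were in Top2a, the decatenating topoisomerase, Mad2l1, a spindle checkpoint protein, and Ccnb1. Top2a (chr11:98992943-99024189, minus strand) was at 639.6 and 621.4 CPM in Dlx2+dox EBs, against 1068 and 1009 CPM in GFP+dox EBs (-0.72 ± 0.048, adjusted p = 1.03e-11). Mad2l1 was at 100.6 and 100.9 CPM, against 161.1 and 160.8 CPM in GFP+dox EBs (-0.68, adjusted p = 4.06e-11), and Ccnb1 at 326.5 and 322.3 CPM, against 503.1 and 470.7 CPM (-0.59, adjusted p = 4.2e-10). None of the 3 overlapped between groups. Smaller falls were called for Birc5 (survivin, -0.38), Ccna2 (cyclin A2, -0.3), Cdk1 (-0.3), the checkpoint kinases Bub1 (-0.31) and Bub1b (-0.3), the centromere proteins Cenpa (-0.22) and Cenpe (-0.28), and Kif11 (-0.26).

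Against this trend, 4 mitosis genes rose in Dlx2+dox EBs. Cdc20 was at 335.1 and 353.7 CPM in Dlx2+dox EBs, against 242 and 258.8 CPM in GFP+dox EBs (0.46 ± 0.05, adjusted p = 3.92e-08). Plk1, the polo kinase of mitotic entry, was at 216.9 and 218.6 CPM, against 156.9 and 160.8 CPM in GFP+dox EBs (0.45 ± 0.048, adjusted p = 1.97e-08). Ccnb2 (cyclin B2, 0.17) and Mki67, which encodes the Ki-67 coat of mitotic chromosomes (0.17), rose less. Mki67 was at 383.9 and 349.4 CPM in Dlx2+dox EBs, against 330.6 and 320.4 CPM in GFP+dox EBs, and its call was lost without the first Dlx2+dox library (adjusted p = 0.138). The call of Ccnb2 was lost without the second (adjusted p = 0.0579). Aurka (-0.08), Aurkb (0.06) and Tpx2 (-0.01), the Aurora kinases and an activator, were not called, and Tpx2 turned to 0.16 under scaling to library size alone. The cyclins B thus differed in direction from each other, as did the cyclins E.

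**Figure D3:**
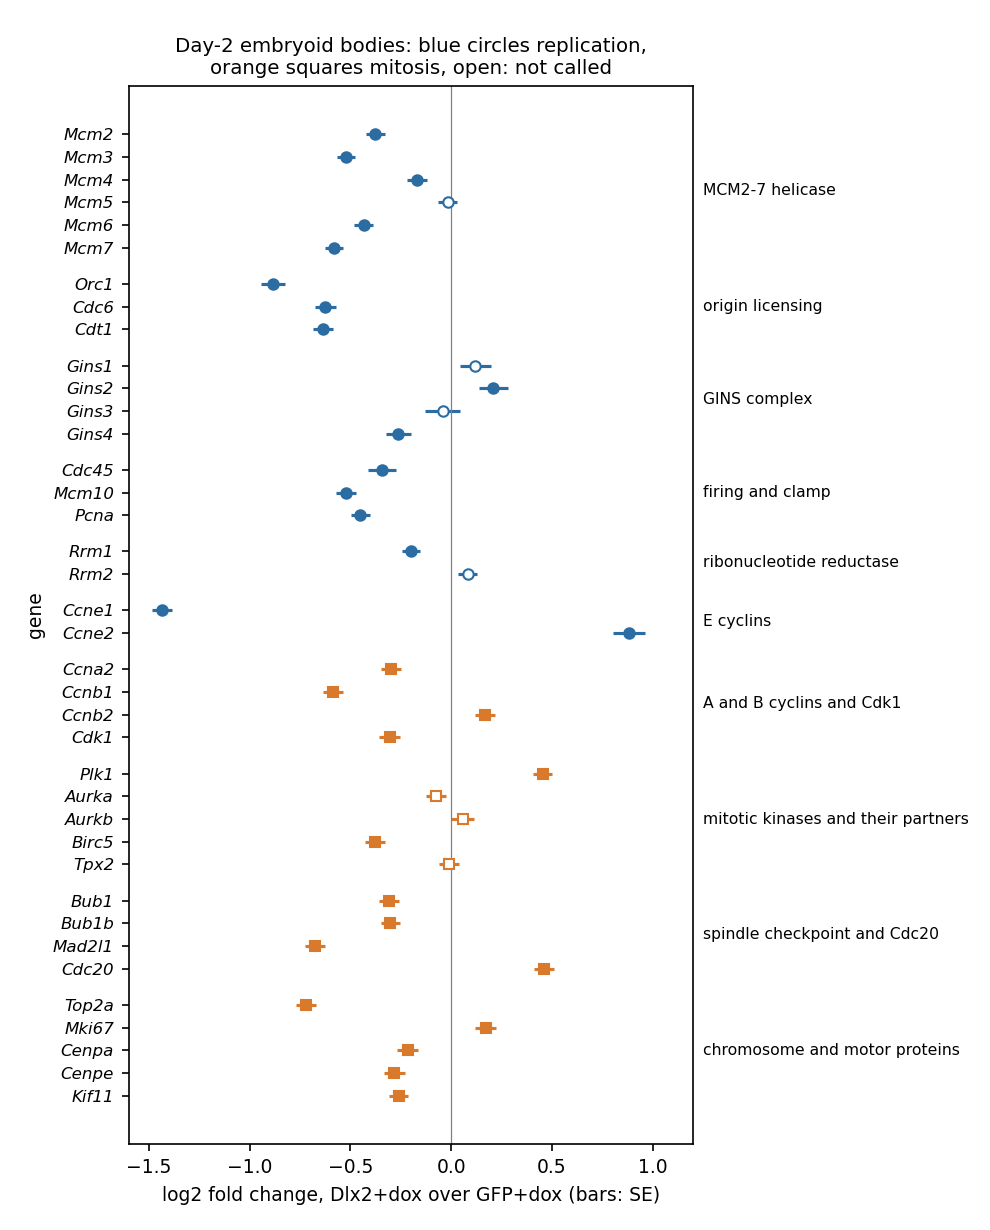
Log2 fold change of each gene in Dlx2+dox over GFP+dox EBs at day 2 (horizontal axis, with SE bars, 2 libraries per group), by role (vertical axis). Blue circles are replication genes, orange squares mitosis genes, and open symbols were not called. Ccne1 (-1.44) and Ccne2 (0.88) are the extremes. Of genes called with TMM or with library size alone, Mcm4, Mcm5 and Tpx2 turned sign between these scalings. Genes called with neither were not counted.

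By day 8 the 2 sorted fractions differed in nearly every gene of the machinery, and of the genes called all but Ccne2 were lower in Msx1+ cells. In D8_Msx1+ against D8_Msx1- cells, 18 of 20 replication genes were called lower and 1 higher, and 16 of 18 mitosis genes were called lower and 0 higher. Of all 22294 genes tested, 24.3% were called lower and 30.4% higher (54.7% either way). No mitosis gene was higher at an unadjusted p below 0.05 in edgeR either (0 of 18), and DESeq2 called 0. The median log2 fold change was -0.69 for replication genes and -0.5 for mitosis genes, against 0.06 over all genes. Scaled to library size alone these medians were -0.54, -0.35 and 0.22.

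Ccne1 and the licensing genes Orc1 and Cdt1 were among the furthest apart at day 8. Ccne1 was at 85.5 and 90.2 CPM in D8_Msx1+ cells, against 162.1 and 163.5 CPM in D8_Msx1- cells (-0.89 ± 0.056, adjusted p = 4.69e-09). Orc1 was at 35 and 32.9 CPM, against 62.5 and 59.6 CPM in D8_Msx1- cells (-0.85 ± 0.07, adjusted p = 8.68e-08), and Cdt1 at 120.7 and 133.1 CPM, against 219.3 and 232.2 CPM (-0.83). The groups did not overlap in any of these. All 6 MCM subunits were lower, from -0.84 for Mcm3, at 303.2 and 303.8 CPM in D8_Msx1+ cells, against 543.7 and 543.8 CPM in D8_Msx1- cells, to -0.57 for Mcm6. Mcm2 was at 368.5 and 406 CPM in D8_Msx1+ cells, against 651.8 and 668.5 CPM in D8_Msx1- cells (-0.77), and Mcm5, not called at day 2, at 313.6 and 321.5 CPM, against 478.3 and 482.2 CPM (-0.6, adjusted p = 1.54e-07). Mcm10 (-0.8), Cdc6 (-0.7), Cdc45 (-0.58) and Pcna (-0.51) were lower too, and of the GINS subunits Gins1 (-0.78), Gins4 (-0.7) and Gins2 (-0.34). Gins3, at 18 and 17 CPM in D8_Msx1+ cells, against 17 and 18.9 CPM in D8_Msx1- cells, overlapped between fractions (adjusted p = 0.777).

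Among replication genes at day 8, cyclin E2 was the 1 called higher, and the large subunit of ribonucleotide reductase had the smallest called difference. Rrm2, the small subunit, was at 200 and 189.5 CPM in D8_Msx1+ cells, against 267.6 and 272.1 CPM in D8_Msx1- cells (-0.47, adjusted p = 5.37e-06). Rrm1 differed less, at 219.9 and 224.8 CPM, against 247.9 and 253.8 CPM in D8_Msx1- cells (-0.18, adjusted p = 0.0103), and its call was lost under library size alone (adjusted p = 0.752), without the first D8_Msx1+ library (adjusted p = 0.052) or without the second D8_Msx1- library (adjusted p = 0.0598). Ccne2 rose in Msx1+ cells, at 21.9 and 20.2 CPM in D8_Msx1+ cells, against 15.8 and 15.8 CPM in D8_Msx1- cells (0.41 ± 0.092, adjusted p = 0.0015).

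Mitosis genes were lower across all their roles at day 8. Bub1 was furthest apart, at 81.5 and 75.1 CPM in D8_Msx1+ cells, against 144.9 and 140.7 CPM in D8_Msx1- cells (-0.87 ± 0.059, adjusted p = 9.63e-09). Ccnb2 was at 109.4 and 113.2 CPM, against 171.9 and 181.6 CPM in D8_Msx1- cells (-0.67, adjusted p = 1.45e-07), and Mad2l1 at 84.8 and 78.5 CPM, against 124.7 and 130.1 CPM (-0.64). Ccnb1 was at 262.4 and 254.4 CPM in D8_Msx1+ cells, against 403.4 and 392.8 CPM in D8_Msx1- cells (-0.63), and Top2a at 496.9 and 521.8 CPM, against 738.7 and 725.2 CPM (-0.52). Plk1 and Cdc20, which were higher in Dlx2+dox EBs at day 2, were lower in D8_Msx1+ cells (-0.25 and -0.44), although the call of Plk1 was lost under scaling to library size alone (adjusted p = 0.135). Mki67 was at 258.9 and 294.8 CPM in D8_Msx1+ cells, against 317.4 and 291.2 CPM in D8_Msx1- cells, which overlap (-0.14, adjusted p = 0.164). It was called lower without the second D8_Msx1+ library (adjusted p = 0.0292). Kif11, at 7.34 and 4.22 CPM in D8_Msx1+ cells, against 7.39 and 5.56 CPM in D8_Msx1- cells, was not called, but was without the first D8_Msx1+ library (adjusted p = 0.0317).

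At day 16 the separation was of the same kind, with larger falls in part of the machinery. In D16_Msx1+ against D16_Msx1- cells, 17 of 20 replication genes were called lower and 1 higher, and 16 of 18 mitosis genes lower and 0 higher. Over all 22294 genes, 31% were called lower and 31.1% higher (62.1% either way). Again 0 of 18 mitosis genes were higher at an unadjusted p below 0.05 in edgeR, and DESeq2 called 0. The medians were -0.58 for replication and -0.61 for mitosis genes, against -0.02 over all genes.

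Orc1, Mcm10 and Mcm2 were the replication genes furthest apart at day 16. Orc1 (chr4:108579423-108614833, plus strand) was at 16.3 and 16 CPM in D16_Msx1+ cells, against 39.9 and 37.7 CPM in D16_Msx1- cells (-1.26 ± 0.074, adjusted p = 1.29e-09). Mcm10 (chr2:4989714-5012791, minus strand) was at 46.8 and 47.7 CPM, against 111.4 and 112.3 CPM in D16_Msx1- cells (-1.25 ± 0.054, adjusted p = 4.62e-11), or 0.421 times the level. Mcm2 was at 225.3 and 204.7 CPM in D16_Msx1+ cells, against 423.1 and 448.9 CPM in D16_Msx1- cells (-1.02, adjusted p = 4.5e-09). None of these overlapped between fractions. Mcm5 was at 189.8 and 188.2 CPM in D16_Msx1+ cells, against 356.6 and 362.2 CPM in D16_Msx1- cells (-0.93), and the remaining MCM subunits lay between -0.87 (Mcm3 and Mcm7) and -0.49 (Mcm4). Cdt1 (-0.88), Gins1 (-0.86), Gins4 (-0.61), Cdc6 (-0.6), Ccne1 (-0.57), Cdc45 (-0.53) and Pcna (-0.38) were also called lower. Ccne1 was at 70.8 and 74.9 CPM in D16_Msx1+ cells, against 107.2 and 108.3 CPM in D16_Msx1- cells.

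Rrm1, the large subunit of ribonucleotide reductase (chr7:102441695-102469771, plus strand), went the other way at day 16. It was at 299.5 and 305.6 CPM in D16_Msx1+ cells, against 228.1 and 230.3 CPM in D16_Msx1- cells, with no overlap (0.4 ± 0.052, adjusted p = 9.83e-06), or 1.32 times the level. Its partner Rrm2 was at 193.3 and 208.4 CPM in D16_Msx1+ cells, against 223.5 and 220.1 CPM in D16_Msx1- cells (-0.15, adjusted p = 0.0389). The calls of Rrm2 and Gins2 (-0.19, adjusted p = 0.0372) were lost without the first D16_Msx1+ library (adjusted p = 0.278 and 0.229) or the first D16_Msx1- library (adjusted p = 0.107 and 0.214), and that of Rrm2 also without the second D16_Msx1- library (adjusted p = 0.0937) and with a replicate block (adjusted p = 0.0508). Ccne2, at 22.2 and 25.6 CPM in D16_Msx1+ cells, against 22.5 and 21.9 CPM in D16_Msx1- cells, overlapped (adjusted p = 0.346).

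Among mitosis genes, Ccnb1 (chr13:100778650-100786570, minus strand) was at 165.3 and 167.9 CPM in D16_Msx1+ cells, against 375.3 and 366.8 CPM in D16_Msx1- cells (-1.16 ± 0.054, adjusted p = 1.01e-10), or 0.448 times the level. Ccnb2 was at 72.1 and 77.3 CPM, against 155.7 and 153 CPM in D16_Msx1- cells (-1.05), and Bub1 at 58.7 and 60.6 CPM, against 120.8 and 120.1 CPM (-1.02). Cenpa, the centromeric histone, was at 92 and 97.8 CPM in D16_Msx1+ cells, against 197.6 and 179.7 CPM in D16_Msx1- cells (-0.99). Aurka, the spindle pole kinase, was at 55.2 and 55.1 CPM, against 103.6 and 104 CPM in D16_Msx1- cells (-0.92), Cdc20 at 133.5 and 126.9 CPM, against 212.3 and 204 CPM (-0.68), and Plk1 at 102.8 and 108.4 CPM, against 157.4 and 162.5 CPM (-0.6). In each of these the fractions were fully separate. Cdk1 (-0.5), Top2a (-0.52) and Birc5 (-0.53) fell less, and Mki67 (-0.15, adjusted p = 0.114) and Kif11 (0.21, adjusted p = 0.504) were not called. Mki67 was at 314.8 and 285.3 CPM in D16_Msx1+ cells, against 312.1 and 353.4 CPM in D16_Msx1- cells, and was called lower without the first D16_Msx1- library (adjusted p = 0.0302).

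**Figure D4:**
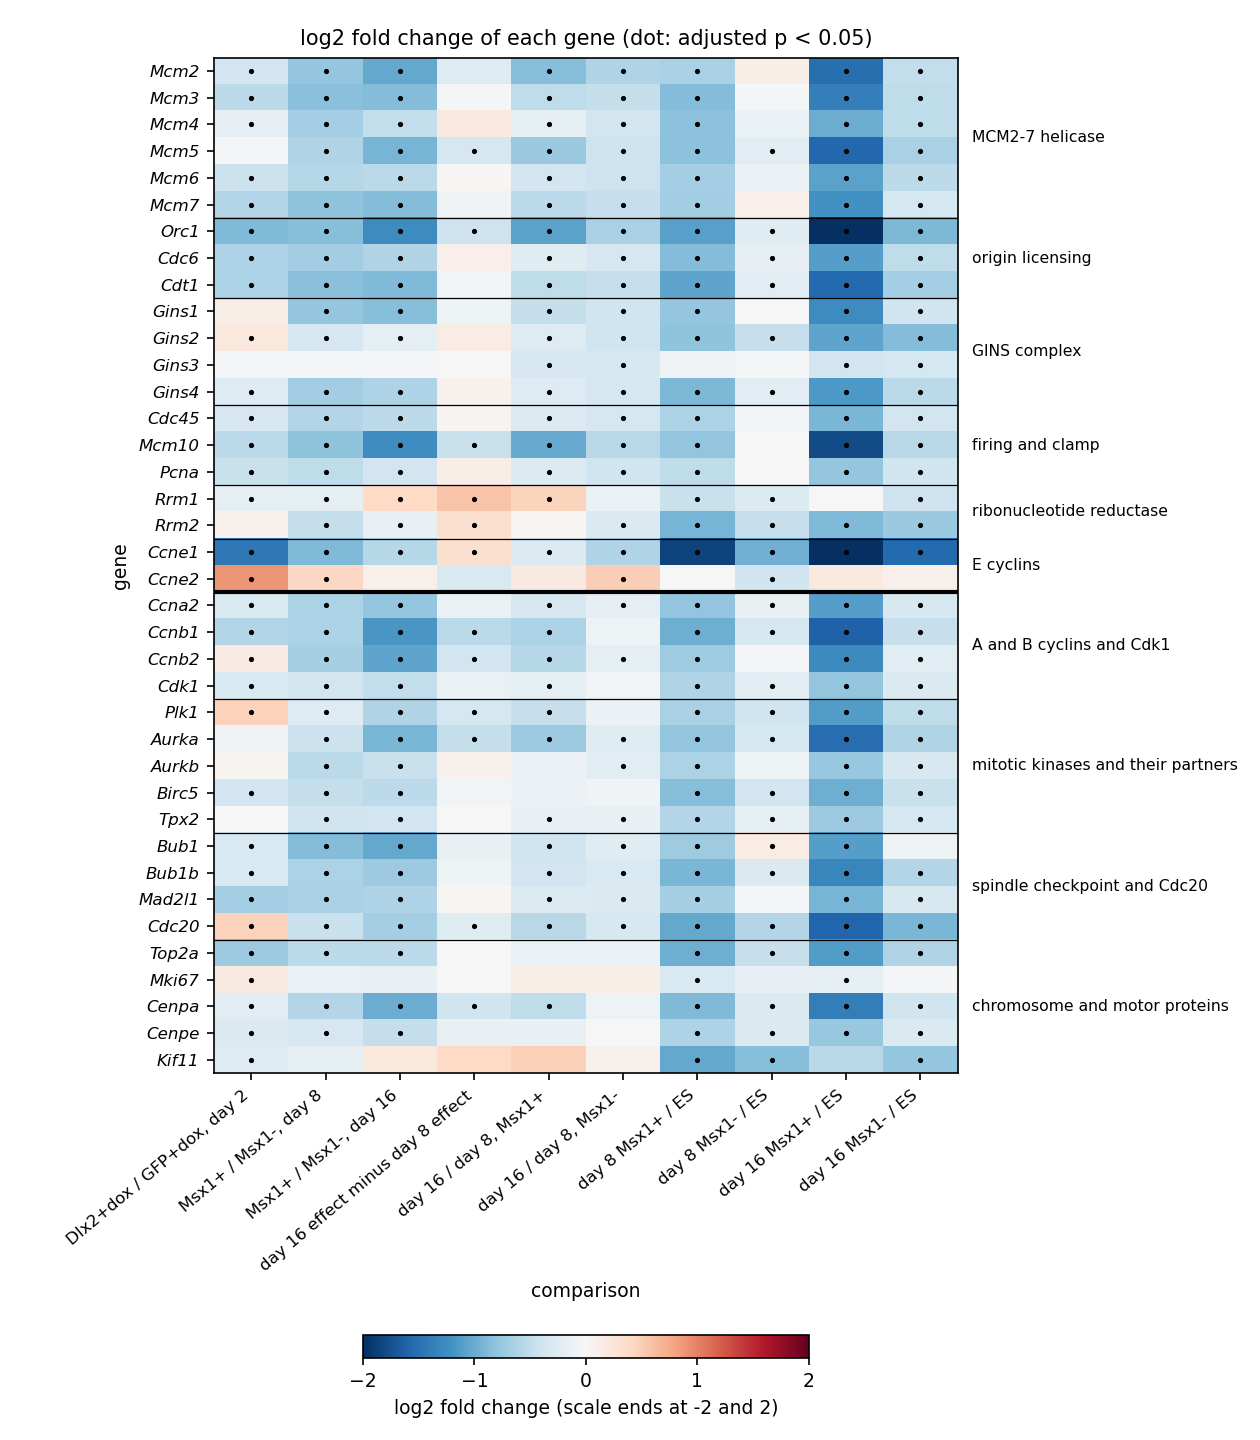
Log2 fold change (colour, blue lower and red higher, scale from -2 to 2) of 38 genes (vertical axis, by role, replication above the thick line) in 10 comparisons (horizontal axis), with a dot where the adjusted p was below 0.05. Blue prevails in both lists, with 18 of 20 replication and 16 of 18 mitosis genes called lower in D8_Msx1+ against D8_Msx1- cells, and Ccne2, Rrm1, Cdc20 and Plk1 hold the red cells with a dot that stand out. Of genes called at day 2 with TMM or with library size alone, Mcm4, Mcm5 and Tpx2 turned sign between these scalings.

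Whether the gap between fractions itself grew from day 8 to day 16 was tested as the difference between the day-16 and the day-8 effect. For replication genes 3 of 20 were called lower and 3 higher, and for mitosis genes 6 of 18 lower and 0 higher, against 18.3% lower and 10.3% higher of all 22294 genes (28.6% either way). No mitosis gene was higher at an unadjusted p below 0.05 (0 of 18, edgeR), and DESeq2 called 0. The median was 0.01 for replication and -0.13 for mitosis genes, against -0.1 over all genes. Scaled to library size alone, the median of all genes was -0.28, and the calls became 8 lower and 1 higher for replication and 11 lower for mitosis genes.

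The gap widened for Ccnb1 (-0.53 ± 0.075, adjusted p = 8.88e-05), Aurka (-0.48 ± 0.085), Cenpa (-0.4), Ccnb2 (-0.38), Plk1 (-0.35) and Cdc20 (-0.23, adjusted p = 0.0434) among mitosis genes, and for Mcm10 (-0.45 ± 0.075, adjusted p = 0.000396), Orc1 (-0.41) and Mcm5 (-0.33) among replication genes. It narrowed for Ccne1 (0.32) and Rrm2 (0.33) and turned round for Rrm1 (0.57 ± 0.074, adjusted p = 3.91e-05). The call of Cdc20 was lost without any library in turn but the first D8_Msx1+ and the first D16_Msx1+ library (adjusted p from 0.0629 to 0.199), under RLE scaling (adjusted p = 0.117), under DESeq2 (adjusted p = 0.123) and with a replicate block (adjusted p = 0.0588), and that of Plk1 without the first D8_Msx1- library (adjusted p = 0.0651). Those of Rrm2 and Ccne1 were lost under scaling to library size alone (adjusted p = 0.23 and 0.195). Mcm2 (-0.25, adjusted p = 0.0577) was not called, but was without the first D8_Msx1+ or the first D16_Msx1+ library (adjusted p = 0.0164 and 0.0263). For Ccne2 (-0.31, adjusted p = 0.0931) a call appeared without the second D16_Msx1+ library (adjusted p = 0.039), and for Kif11 (0.39) without the first D8_Msx1+ library (adjusted p = 0.0441). The effects on Mad2l1 (0.02) and Mki67 (-0.01) were nearly equal on both days.

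**Figure D5:**
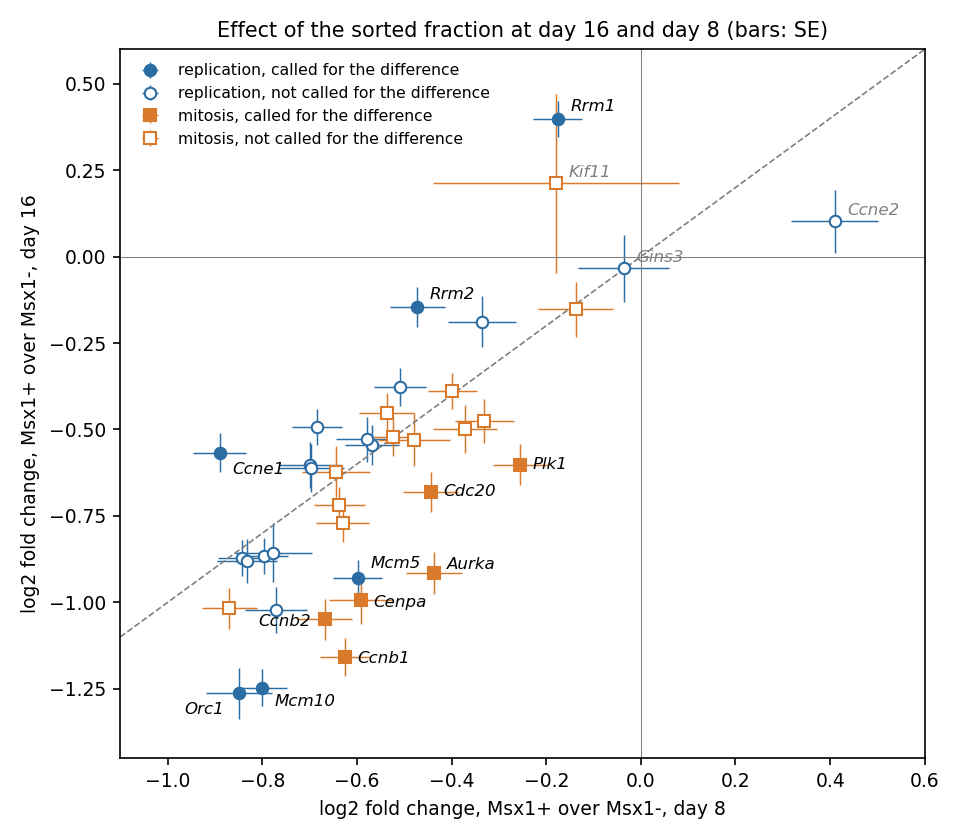
Log2 fold change of Msx1+ over Msx1- cells at day 16 (vertical axis) against day 8 (horizontal axis) for 20 replication genes (blue circles) and 18 mitosis genes (orange squares), with SE bars of 2 libraries per group and a dashed line of equality. Filled symbols mark the 12 genes called for the difference between days. Rrm1 (difference 0.57) lies furthest above the line and Ccnb1 (-0.53) furthest below it.

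Within the Msx1+ fraction, most genes fell further with time. In D16_Msx1+ against D8_Msx1+ cells, 17 of 20 replication genes were called lower and 1 higher, and 12 of 18 mitosis genes lower and 0 higher, against 24.8% lower and 21.1% higher of all genes (45.9% either way). No mitosis gene was higher at an unadjusted p below 0.05 (0 of 18, edgeR), and DESeq2 called 0. On the log2 scale Orc1 (-1.07 ± 0.073), Mcm10 (0.498 times the level) and Mcm2 (-0.85 ± 0.066) led the replication genes, and their library values, given above, did not overlap between days. Aurka (-0.72), Ccnb1 (-0.63), Ccnb2 (-0.58) and Cdc20 (-0.56) led the mitosis genes. Rrm1 rose by 0.44 ± 0.052 (adjusted p = 6.17e-06). Top2a, at 473.3 and 456.4 CPM in D16_Msx1+ cells, against 496.9 and 521.8 CPM in D8_Msx1+ cells, was not called (-0.13, adjusted p = 0.0654), nor were Birc5, Cenpe, Aurkb, Mki67 and Kif11. Marker lists moved here too, with all 7 endoderm and all 8 mesenchyme markers called higher and all 7 ES cell markers lower. Of 7 neuron markers 1 was called higher and 4 lower, and of 6 surface epithelium markers 3 higher and 2 lower. Of 6 endothelial markers 3 were called higher and 1 lower, of 5 cardiac muscle markers 2 and 1, and of 6 blood markers 3 and 0. Their part in the falls was not tested. Without the first D16_Msx1+ library, Cdc6, Mad2l1, Gins2, Gins3, Tpx2 and Cdk1 lost their calls (adjusted p from 0.0717 to 0.212) and Ccne2 gained a call (adjusted p = 0.0392). Without the second D16_Msx1+ library, Tpx2 lost its call (adjusted p = 0.0669). Without the first D8_Msx1+ library, Gins3, Tpx2 and Cdk1 lost their calls (adjusted p from 0.0783 to 0.256) and Kif11, Cenpe and Top2a gained calls (adjusted p from 0.00374 to 0.0473). Without the second D8_Msx1+ library, Tpx2, Cdc6 and Gins4 lost their calls (adjusted p from 0.0614 to 0.0944) and Birc5 gained a call (adjusted p = 0.0344).

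Within the Msx1- fraction, replication genes fell with time and mitosis genes less so. In D16_Msx1- against D8_Msx1- cells, 18 of 20 replication genes were called lower and 1 higher, but 9 of 18 mitosis genes lower and 0 higher, against 17.8% lower and 19.7% higher of all genes (37.6% either way). The median log2 fold change was -0.4 for replication and -0.14 for mitosis genes, against 0.01 over all genes. Markers of other cell types moved with these falls. Summed over 7 endoderm markers, the level was 369 to 376 CPM in D16_Msx1- cells, against 28.4 to 30.9 CPM in D8_Msx1- cells, with 7 of 7 called higher. Over 6 surface epithelium markers it was 1233 to 1234 CPM in D16_Msx1- cells, against 459 to 470 CPM in D8_Msx1- cells, with 4 of 6 called higher and 0 lower. All 8 mesenchyme markers were called higher as well, and 5 of 7 ES cell markers lower and 1 higher. Of 6 endothelial markers 5 were called higher and 1 lower. Of 5 cardiac muscle and 6 blood markers 3 each were called higher and 0 lower. Of 7 neuron markers 2 were called higher and 2 lower. No endoderm, surface epithelium, mesenchyme or ES cell marker was at 0 in either group. The part of any of these lists in the falls was not tested. Scaled to library size alone 5 mitosis genes were called lower, and 4 were without the second D16_Msx1- library. No mitosis gene was higher at an unadjusted p below 0.05 (0 of 18, edgeR), and DESeq2 called 0. All 6 MCM subunits (-0.37 to -0.6), all 3 licensing genes (-0.33 to -0.66) and all 4 GINS subunits (-0.32 to -0.4) were called lower. Ccne1 was lower (-0.6 ± 0.056), and Ccne2 rose by 0.49 ± 0.093 (adjusted p = 0.000701). Among mitosis genes, all 4 of the spindle checkpoint with Cdc20 were called lower (-0.25 to -0.32), while 0 of 5 chromosome and motor genes were called by edgeR. At an unadjusted p below 0.05 edgeR gave 1 of these 5 (Top2a), and DESeq2 called the same 1 lower. Ccnb1 was at 375.3 and 366.8 CPM in D16_Msx1- cells, against 403.4 and 392.8 CPM in D8_Msx1- cells (-0.1, adjusted p = 0.155), and Cdk1 (-0.06), Plk1 (-0.11) and Cenpa (-0.11) were not called. Without the first D16_Msx1- library, Ccnb2, Ccna2 and Tpx2 lost their calls (adjusted p from 0.0521 to 0.128). Without the second D16_Msx1- library, Mad2l1, Aurkb, Ccna2, Ccnb2, Tpx2 and Gins3 lost their calls (adjusted p from 0.0776 to 0.111). Without the first D8_Msx1- library, Aurkb, Tpx2 and Ccna2 lost their calls (adjusted p from 0.101 to 0.178). Without the second D8_Msx1- library, Aurka, Tpx2, Ccnb2 and Gins3 lost their calls (adjusted p from 0.0519 to 0.141).

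Against the libraries labelled ES, the day-8 Msx1- fraction had the smallest median differences of the sorted groups and the day-16 Msx1+ fraction the greatest. These 4 comparisons share the same ES libraries, which held the Dlx2 transcript against their label, and were fitted over 10 libraries and 22504 genes. In D8_Msx1- cells, 10 of 20 replication genes were called lower and 0 higher, and 13 of 18 mitosis genes lower and 1 higher, against 14.5% lower and 19% higher of all genes (33.6% either way). At an unadjusted p below 0.05 edgeR gave 0 higher replication genes, and DESeq2 called 0. Without the second ES library 6 replication genes were called lower. Mcm2, Mcm3, Mcm6, Mcm7 and Mcm10 lay between -0.12 and 0.11 on the log2 scale and were not called. The mitosis gene called higher, Bub1 (0.15 ± 0.056, adjusted p = 0.0469), lost its call without any of the 4 libraries (adjusted p from 0.108 to 0.234), under DESeq2 and with a replicate block. Smaller calls turned on single libraries. Without the first D8_Msx1- library, Tpx2, Ccna2, Cdc6, Cdk1, Cdt1, Gins4 and Bub1 lost their calls (adjusted p from 0.0649 to 0.234). Without the second D8_Msx1- library, Tpx2, Gins4, Bub1, Orc1, Kif11, Cdc6 and Ccna2 lost their calls (adjusted p from 0.0573 to 0.297). Without the first ES library, Cdk1, Cdc6, Kif11, Bub1, Cdt1, Ccna2 and Gins4 lost their calls (adjusted p from 0.0816 to 0.168). Without the second ES library, Ccne2, Gins4, Cenpe, Kif11, Orc1, Tpx2, Ccna2, Bub1 and Cdc6 lost their calls (adjusted p from 0.051 to 0.217). The larger falls were in Ccne1 (-0.96 ± 0.054), Kif11 (-0.85 ± 0.25, at a low level), Cdc20 (-0.59), Gins2 (-0.46), Rrm2 (-0.46) and Top2a (-0.46).

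In D8_Msx1+ cells, 18 of 20 replication and 18 of 18 mitosis genes were called lower than in the libraries labelled ES and 0 higher in either list, against 26.9% lower and 34.6% higher of all genes (61.5% either way). By edgeR 0 replication and 0 mitosis genes were higher at an unadjusted p below 0.05, and DESeq2 called 0 and 0. Ccne1 was at 85.5 and 90.2 CPM in D8_Msx1+ cells, against 314.5 and 319.8 CPM in the libraries labelled ES (-1.85 ± 0.055, adjusted p = 8.65e-15). Orc1 (-1.09), Cdt1 (-1.05), Kif11 (-1.03 ± 0.24), Cdc20 (-1.03), Top2a (-0.98) and Ccnb1 (-0.98) followed. Gins3 (-0.07) and Ccne2 (0.01) were not called.

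In D16_Msx1+ cells, 18 of 20 replication and 17 of 18 mitosis genes were called lower than in the libraries labelled ES and 0 higher in either list, against 33.7% lower and 37.3% higher of all genes (71% either way). By edgeR 1 replication and 0 mitosis genes were higher at an unadjusted p below 0.05, and DESeq2 called 0 and 0. The medians reached -1.13 for replication and -1.1 for mitosis genes, against 0.07 over all genes. Orc1 was at 16.3 and 16 CPM in D16_Msx1+ cells, against 71 and 73.1 CPM in the libraries labelled ES (-2.15 ± 0.071, adjusted p = 1.47e-14), or 0.225 times the level. Ccne1 was at 70.8 and 74.9 CPM, against 314.5 and 319.8 CPM in the libraries labelled ES (-2.12 ± 0.056), and Mcm10 at 46.8 and 47.7 CPM, against 167.7 and 159.9 CPM (-1.79). Ccnb1 was at 165.3 and 167.9 CPM in D16_Msx1+ cells, against 516.9 and 502.7 CPM in the libraries labelled ES (-1.61 ± 0.052), Cdc20 at 133.5 and 126.9 CPM, against 402 and 380.4 CPM (-1.59), and Aurka at 55.2 and 55.1 CPM, against 159.2 and 156.5 CPM (-1.52). These genes did not overlap between groups. Rrm1 stood out by its absence from the falls, at 299.5 and 305.6 CPM in D16_Msx1+ cells, against 306.8 and 301 CPM in the libraries labelled ES (-0.01, adjusted p = 0.918). Ccne2 (0.2, adjusted p = 0.0677) was not called, but was called higher without the first D16_Msx1+ library (adjusted p = 0.0207) or the second ES library (adjusted p = 0.0496). Mki67, at 314.8 and 285.3 CPM in D16_Msx1+ cells, against 338.8 and 342.5 CPM in the libraries labelled ES, was called lower (-0.18, adjusted p = 0.0378), and lost the call without the second D16_Msx1+ library (adjusted p = 0.274) or either ES library (adjusted p = 0.0926 and 0.117).

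In D16_Msx1- cells, 19 of 20 replication and 16 of 18 mitosis genes were called lower than in the libraries labelled ES and 0 higher in either list, against 24.5% lower and 28.5% higher of all genes (53% either way). By edgeR 0 replication and 0 mitosis genes were higher at an unadjusted p below 0.05, and DESeq2 called 0 and 0. The medians were -0.5 for replication and -0.37 for mitosis genes, against 0.06 over all genes. Ccne1 was again furthest, at 107.2 and 108.3 CPM in D16_Msx1- cells, against 314.5 and 319.8 CPM in the libraries labelled ES (-1.56 ± 0.055), ahead of Cdc20 (-0.91), Orc1 (-0.89), Gins2 (-0.86) and Kif11 (-0.77 ± 0.24). Without the first D16_Msx1- library, Cenpe lost its call (adjusted p = 0.058). Without the second D16_Msx1- library, Gins3 and Kif11 lost their calls (adjusted p from 0.0606 to 0.136). Without the first ES library, Kif11 lost its call (adjusted p = 0.1). Without the second ES library, Kif11 and Gins3 lost their calls (adjusted p from 0.0547 to 0.103).

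The balance between the lists can be read from the ratio of their summed levels in each library, which was given no test. It was 0.948 and 0.969 in Dlx2+dox EBs, against 1.03 and 1.06 in GFP+dox EBs. In sorted cells it was 1.17 and 1.17 in D8_Msx1+ cells, against 1.3 and 1.33 in D8_Msx1- cells, and 1.09 and 1.11 in D16_Msx1+ cells, against 1.06 and 1.08 in D16_Msx1- cells. In the libraries labelled ES the ratio was 1.185 and 1.15. The ratio was lower in the Dlx2+dox and D8_Msx1+ libraries than in the libraries they were set against, while at day 16 the fractions differed by 0.03 ± 0.017 on the log2 scale (pooled SD, n = 2 each). Between days the ratio changed most in Msx1- cells (-0.29 ± 0.017), with both day-16 libraries below both day-8 libraries. Without the most abundant gene of each list (Mcm2 and Top2a), the difference was -0.24 at day 2 and 0.11 between the day-16 fractions.

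Other genes of the same processes were also mostly lower in Msx1+ cells, while at day 2 their shares lay between those of the 38 genes and those of all genes, a difference that was not tested. Of 51 further replication genes (polymerases, clamp loader, nucleotide enzymes), 29 were called lower and 8 higher in Dlx2+dox EBs, 43 lower and 8 not called in D8_Msx1+ cells, and 41 lower and 2 higher in D16_Msx1+ cells, each against its comparison group. In percent these were 56.9% lower and 15.7% higher at day 2, 84.3% lower at day 8 and 80.4% lower at day 16, with medians of -0.25, -0.47 and -0.42. Of 64 further mitosis genes, 29 were lower and 19 higher in Dlx2+dox EBs, 56 lower and 8 not called in D8_Msx1+ cells, and 53 lower and 3 higher in D16_Msx1+ cells. These were 45.3% lower and 29.7% higher at day 2, 87.5% lower at day 8 and 82.8% lower at day 16, with medians of -0.07, -0.47 and -0.54. Over all genes, 33% were lower and 34.1% higher at day 2, 24.3% and 30.4% at day 8, and 31% and 31.1% at day 16. Ticrr (treslin), which brings Cdc45 to origins, was at 47.9 and 47.6 CPM in D16_Msx1+ cells, against 185 and 202 CPM in D16_Msx1- cells (-2.02). Rfc5, a clamp loader subunit, was lower in Dlx2+dox EBs (-1.09), D8_Msx1+ cells (-1.02) and D16_Msx1+ cells (-1.05). Cenpm, a kinetochore protein, was lower in the same 3 comparisons (-1.01, -1.44 and -1.6).

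Among 21 transcription regulators of the cell cycle, 10 were called lower and 4 higher in Dlx2+dox EBs, 12 lower and 2 higher in D8_Msx1+ cells, and 9 lower and 4 higher in D16_Msx1+ cells. As shares, 47.6%, 57.1% and 42.9% of the list were lower at day 2, day 8 and day 16, against 33%, 24.3% and 31% of all genes, and 19%, 9.52% and 19% were higher, against 34.1%, 30.4% and 31.1%. The medians were small, at -0.18, -0.24 and -0.11. Mybl2, which encodes B-Myb, the MuvB partner at mitotic promoters, moved furthest. It was at 278 and 286.9 CPM in Dlx2+dox EBs, against 729.2 and 739.1 CPM in GFP+dox EBs (-1.38). In sorted cells it was at 406.1 and 421.3 CPM in D8_Msx1+ cells, against 1277 and 1269 CPM in D8_Msx1- cells (-1.62), and at 77.4 and 72.1 CPM in D16_Msx1+ cells, against 828.9 and 845.4 CPM in D16_Msx1- cells (-3.49). Its groups were widely separate each time, and the gap widened between days (-1.87, adjusted p = 7.58e-10). E2f1, an activator of S-phase genes, was lower in D8_Msx1+ cells (-0.75), and Rbl2, a pocket protein of resting cells, was higher in D16_Msx1+ cells (1.31).

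The brakes were mostly higher in Msx1+ cells, and the D cyclins were split. Of 10 CDK inhibitors and D cyclins, 8 were called higher and 2 lower in D8_Msx1+ cells, 8 higher and 2 lower in D16_Msx1+ cells, and 4 higher and 5 lower in Dlx2+dox EBs. The 80% higher on day 8 and on day 16 stand against 30.4% and 31.1% of all genes, while the 40% higher at day 2 are near the 34.1% of all genes. The 2 called lower were Ccnd1 (-0.15) and Ccnd3 (cyclin D3, -0.57) in D8_Msx1+ cells, and Cdkn1c (p57, -0.58) and Ccnd3 (-0.62) in D16_Msx1+ cells. Ccnd2 (cyclin D2), which carries growth signals into G1, was at 398.2 and 451.1 CPM in D8_Msx1+ cells, against 14.6 and 13.9 CPM in D8_Msx1- cells (4.89), and at 151.6 and 138.4 CPM in Dlx2+dox EBs, against 13.5 and 14.9 CPM in GFP+dox EBs (3.35). Cdkn2a, which encodes p16 and p19Arf, was at 108.5 and 111.1 CPM in D16_Msx1+ cells, against 20.3 and 20.2 CPM in D16_Msx1- cells (2.44), and Cdkn2b (p15) at 63.5 and 60.3 CPM, against 9.64 and 11 CPM (2.58). Ccnd1 (cyclin D1) was lower in Dlx2+dox EBs (-1.29) and higher in D16_Msx1+ cells (2.46), at 255.6 and 261.4 CPM, against 46.3 and 47.3 CPM in D16_Msx1- cells. These lists were named with earlier results of the data known, so their counts are descriptions.

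Counting without strand and near-identical copies limit some of these genes. Exon bases are shared with a gene on the other strand in Ccna2 (12.5% of its exon length, with Exosc9), Ccne2, Gins2, Cdc45 (6%, with Ufd1), Mcm7 (7.3%, with Ap4m1), Orc1 (10.8%, with Gm12743), Plk1 (7.1%, with Gm44985) and Cdc20 (2.8%, with Elovl1), in GENCODE vM21. Named pseudogenes exist for Pcna, Ccnb1 and Ccnb2, and how the authors' counting treated reads shared with them is not given in the sources used here.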

How the data were processed

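RNA was extracted with TRI Reagent and made into libraries with a NEBNext Ultra kit, per the labels' protocols, and that kit does not mark strand. Both deposited tables hold whole-number read counts under gene symbols, for the 4 day-2 libraries and for the 10 sorted and ES libraries, and the authors' counts were taken as they are. Reads were handled with fastp 0.20.0 and HISAT2 2.1.0 on GRCm38, and DESeq2 1.18.1 was used, per the submitters' processing notes. Which program counted the reads, and on which annotation, is not given in the sources used here. Total counts ran from 26211608 to 107770730 per library. Mean chi-square between replicates was 4.78 to 22.95 per gene, above sampling noise. Each library was counted as its own sample, but such values cannot tell separate cultures from separate preparations of the same culture.

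Here, counts were fitted with edgeR 4.0.16 (filterByExpr, TMM, robust quasi-likelihood F-test, two-sided), in R 4.3.3, with Benjamini-Hochberg adjustment over all genes tested and calls at 0.05. The day-2 fit held 2 groups, the fit of sorted fractions 4 groups (without the ES libraries), and the fit against ES libraries 5 groups. The SE of a log2 fold change is its size over the square root of F. Levels are TMM-scaled CPM, and levels of separate tables were not compared, apart from ratios by library size given to describe Kif11. An exact test of 2 against 2 libraries cannot go below 0.333, so p-values come from the fits across all genes only. The steps were also run on simulated counts in which few genes changed, as many up as down. That run does not test the choice of scaling where many genes change.

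The 38 genes and the other lists were chosen with earlier results of these data known. Library values are given for a set list of genes and for the 3 genes of each list with the largest change in a comparison. Those of Rrm1, Gins3, Kif11 and, at day 8, Mad2l1 were added after the values were seen. From other lists, up to 4 called genes with the largest change are named, and the CDK inhibitors and D cyclins called lower in Msx1+ cells were added after their values were seen. Coordinates are those of GENCODE vM21 on GRCm38. Alternatives were RLE scaling, library size alone, 2 filters, DESeq2 1.42.0, a replicate block, fits of only the groups compared, and each library left out. Leaving Kif11 out was chosen after seeing the data. The uninduced EBs (4 samples) were not analysed here.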

Additional observations from a re-analysis of the deposited data

Results flagged for a closer look

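The difference between Msx1+ and Msx1- cells was itself different at day 16 and day 8 for 12 of the 38 genes, tested as an interaction in edgeR over the 8 sorted libraries. Of replication genes 15% were called lower and 15% higher, and of mitosis genes 33.3% lower and 0% higher. Over all 22294 genes 18.3% were called lower and 10.3% higher (28.6% either way), so 12 of 38 is near the share of all genes. The values are the day-16 log2 fold change minus the day-8 log2 fold change. Among replication genes they were -0.33 for Mcm5, -0.45 for Mcm10, -0.41 for Orc1, 0.57 for Rrm1, 0.33 for Rrm2 and 0.32 for Ccne1. Among mitosis genes they were -0.53 for Ccnb1, -0.38 for Ccnb2, -0.35 for Plk1, -0.48 for Aurka, -0.23 for Cdc20 and -0.40 for Cenpa. The call of Cdc20 was the least stable. It was lost under RLE scaling (adjusted p = 0.117), DESeq2 (0.123) and a replicate block (0.0588), and without any of 6 of the 8 libraries (0.0629 to 0.199). Plk1 lost its call without the first D8_Msx1- library (0.0651), and Rrm2 (0.23) and Ccne1 (0.195) under library size alone. Rrm1 alone of these had called effects of opposite sign, 0.40 at day 16 and -0.18 at day 8, and its day-8 call was lost under library size alone (-0.021, adjusted p = 0.752), without the first D8_Msx1+ library (0.052) and without the second D8_Msx1- library (0.0598). The mesenchyme marker sum of Msx1+ cells also differed between the days, at 15687 to 17092 CPM on day 16 and 2088 to 2352 CPM on day 8, and its part in these values was not tested.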

How the results depend on the processing

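Of 4218 values of single genes under the alternatives, 4025 kept their side of the threshold, 133 lost and 57 gained a call. Another 3 turned sign with a call before or after. Sign changes of values not called under either setting were not counted. Those 3 were Mcm4 (0.0051), Mcm5 (0.16) and Tpx2 (0.16) at day 2 under scaling to library size alone, which moved the median of all genes there from 0.02 to 0.20, at day 8 from 0.06 to 0.22, and for the difference between days from -0.10 to -0.28. With library size alone, replication genes called higher numbered 5 at day 2, 1 for the difference between days, 1 in D8_Msx1- and 1 in D16_Msx1+ against ES libraries. Genes called lower for the difference between days were then 8 of replication and 11 of mitosis, and mitosis genes lower in D16_Msx1- against D8_Msx1- cells were 5. The CPM filter gave 4 and DESeq2 1 replication gene higher at day 2. Without a filter 1 mitosis gene was higher in D16_Msx1+ against D8_Msx1+ cells. With only the 2 groups compared, 1 mitosis gene was higher in D16_Msx1- against D8_Msx1- cells and 2 replication genes in D8_Msx1- cells against ES libraries. Bub1, the 1 mitosis gene higher there, was not called (0 genes) under RLE scaling, no filter, a replicate block or DESeq2, nor without any library (0 to 0).

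Leaving out each library gave 1 to 2 replication genes higher at day 2 (1 without the second Dlx2+dox or first GFP+dox library). For the difference between days, 0 to 1 mitosis genes were higher (1 without the first D8_Msx1+ library). In D16_Msx1+ against D8_Msx1+ cells, 1 to 2 replication genes (2 without the first D16_Msx1+ library) and 0 to 1 mitosis genes were higher (1 without the first D8_Msx1+ library). In D16_Msx1- against D8_Msx1- cells 4 to 6 mitosis genes were lower. In D8_Msx1- cells against ES libraries 6 to 7 replication genes were lower, and in D16_Msx1+ cells 0 to 1 higher. The left-out arm's lone library is assumed to vary like the other groups.

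The log2 change of the replication-to-mitosis ratio, from means of log2 CPM, was -0.087 in D8_Msx1+ against D8_Msx1- cells, 0.053 at day 16, -0.23 in D16_Msx1- against D8_Msx1- cells and 0.092 in D8_Msx1- cells against ES libraries. Without Mcm2 and Top2a it was -0.24 at day 2, 0.11 at day 16, 0.0019 in D16_Msx1+ against D8_Msx1+ cells, -0.27 in D16_Msx1- against D8_Msx1- cells, and -0.063 (D8_Msx1+), 0.093 (D8_Msx1-), -0.061 (D16_Msx1+) and -0.17 (D16_Msx1-) against ES libraries. For the other cases the cause was not tested.

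Same-numbered libraries of the second table did not deviate together (correlations of -0.0465 to 0.117 over 10 pairs of groups). With 2 libraries per group this cannot exclude that fractions of a day came from the same EBs. Whether the numbers pair the libraries is thus not known, and the main fits were unpaired. A replicate block cost the calls of Rrm2 at day 16 (adjusted p = 0.0508, edgeR), Cdc20 for the difference between days (0.0588), Cdk1 in D16_Msx1+ against D8_Msx1+ cells (0.0504), and Cdc6 (0.0588) and Bub1 (0.0594) in D8_Msx1- cells against ES libraries, and Kif11 in D16_Msx1+ cells against ES libraries gained one (0.0319). For the day-2 comparison alone, no paired analysis was possible because its columns carry no numbers tied to the labels. Kif11 varied between libraries of a group in the second table, at 7.34 and 4.22 CPM in D8_Msx1+ cells. Its SE between the day-8 fractions was 0.26 on the log2 scale, against 0.052 for Rrm1.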

Other observations

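Few genes shared the difference between the tables described for Kif11. Of 4448 symbols over 50 CPM in GFP+dox EBs, 51 (1.15%) were more than 20-fold lower in the ES libraries. Ide, the gene next to Kif11, was at 273.3 CPM in GFP+dox EBs and had 2 counts over all 10 libraries of the other table.

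Histone genes with symbols that begin with Hist1h, Hist2h, Hist3h or Hist4h had a higher summed level in Dlx2+dox EBs at day 2. Messages of replication-dependent histones largely lack a poly(A) tail. The list was made by symbol alone, and replication dependence was not checked for each gene. Of the 62 listed symbols 58 were in the day-2 table and 34 passed the filter, of which 17 (50%) were called higher and 1 (2.94%) lower in Dlx2+dox EBs, against 34.1% and 33% of all genes. Of the 58, 13 were over 1 CPM in both Dlx2+dox libraries, against 5 in both GFP+dox libraries. The filter can keep such a gene through its higher group alone, so these shares cannot show a direction. Summed over the 58 without a filter, the level was 108 to 115 CPM in Dlx2+dox EBs, against 36.9 to 44.2 CPM in GFP+dox EBs. Transcripts encoded by mitochondrial DNA summed to 17688 to 18588 CPM in Dlx2+dox EBs, against 30503 to 35410 CPM in GFP+dox EBs. The part of RNA quality in these values was not tested.

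Ccnd1, a D cyclin, changed its order between days more than any of the 38 genes. It was at 51 and 55 CPM in D8_Msx1+ cells, against 59.2 and 58.7 CPM in D8_Msx1- cells (log2 fold change -0.15), and at 255.6 and 261.4 CPM in D16_Msx1+ cells, against 46.3 and 47.3 CPM in D16_Msx1- cells (2.46), with a difference between days of 2.62 (adjusted p = 4.99e-11, edgeR).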
